A study of Homo sapiens with 4 samples.

Results

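The genes described here encode subunits of RNA polymerase II. They were POLR2A, POLR2B, POLR2C, POLR2D, POLR2E, POLR2G, POLR2H, POLR2I, POLR2K and POLR2L, found by matching the stable gene identifiers of the count table to GENCODE symbols. All 10 were found among the 60708 genes of the table, and all 10 were among the 23321 genes that passed the filter on low counts. They were measured by TT-seq, in which fragments of RNA made during a short pulse of 4-thiouridine are purified and sequenced. Introns are therefore read along with exons. HEK293 cells, an established line from human embryonic kidney, were used. Their own RPB1, the protein made from POLR2A, carried a degron that lets auxin bring about its destruction. Cells were transiently transfected with a plasmid for RPB1 whose C-terminal domain (CTD) had 52 repeats, either of wild-type sequence (52X WT) or with threonine 4 of every repeat changed to alanine (52X T4A). Both groups were given auxin 48 h after transfection for a further 48 h and then 4-thiouridine for 20 min, and each group had 2 libraries. The comparison asks how RNA synthesis differed when the polymerase carried the T4A CTD. Here it is read on the genes of the polymerase itself. Values were scaled to each library's own counts, so they are relative to the other genes. A change in synthesis shared by all genes would not show.

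RNA polymerase II makes the mRNA precursors and many noncoding RNAs of the nucleus. RPB1 and RPB2 form the active centre, RPB3, RPB10, RPB11 and RPB12 form the platform on which the enzyme is assembled, RPB4 and RPB7 form a stalk, and RPB5 and RPB9 lie in the jaw region. RPB5, RPB6, RPB8, RPB10 and RPB12 are also subunits of RNA polymerases I and III, which make ribosomal RNA precursors and small RNAs such as tRNA. The subunits are made in the cytoplasm, assembled there with the help of chaperones and GTPases, and imported as a complex.

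The counts summed to between 33188536 and 45605027 per library. Of the low counts, between 1 and 20, 82.1% to 86.2% were even numbers in each library, so the counts cannot be taken as independent fragments and no counting interval was computed from them. One library stood apart from the rest. The counts scaled to the library size (CPM), on a log2 scale over all tested genes, had a correlation of 0.996 between the 52X WT replicates and of 0.994 between 52X T4A replicate 2 and either of them, but 52X T4A replicate 1 correlated at 0.985 and 0.986 with the 52X WT replicates and at 0.988 with 52X T4A replicate 2. Of all tested genes, 795, or 3.41%, were at least 2-fold lower in 52X T4A replicate 1 than in each of the other 3 libraries. The fold changes of the subunit genes and the medians of gene lists are therefore also given without it. Of the 4 marker genes set for HEK293, PAX2, LHX1 and NEFL were measured and NEFM was too low to be tested. The summed level of the 4 was 13.2 to 13.8 CPM per kb in 52X WT and 10.2 to 13.3 in 52X T4A. The 7 markers of mature kidney summed to between 0.0762 and 0.133 in all 4 libraries, and 5 markers of other cell types to between 0.193 and 0.294. The HEK293 sum was almost all NEFL, with a mean of 12.1 over the 4 libraries. LHX1 was at 0.443, PAX2 at 0.0255 and NEFM at 0.0147. PAX2 and NEFM lay below the mature kidney marker NPHS1, at 0.0414, and below COL1A1 and ALB of the other cell types, at 0.131 and 0.0383. The labels do not say whether the replicates came from separate cultures, so the spread between these libraries may be technical. The p-values rest on that spread as estimated with all genes together, not on each gene's own values alone.

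POLR2A (ENSG00000181222.19, chr17:7484366-7514616 on the plus strand of GRCh38) encodes RPB1, which holds the active site and carries the CTD. Its listed span of 30251 bases covers the endogenous gene. Reads of the transfected RPB1 plasmid also fall on its exons, and the 2 sources cannot be told apart in a count per gene, so POLR2A is described apart from the other 9 genes. A degron acts on the protein, and hence the level of POLR2A RNA does not check the labels. POLR2A had 377312 and 384353 counts in 52X WT replicates 1 and 2 and 251502 and 279478 counts in 52X T4A replicates 1 and 2. It was the most counted gene of every library, ahead of MT-RNR2, the mitochondrial large ribosomal RNA, with between 178454 and 223586 counts. POLR2A alone held between 0.743% and 0.961% of all counts, and the other 9 subunit genes together held between 0.0407% and 0.0454%.

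The level of POLR2A, as normalised CPM per kb of gene span, was 318.7 and 288.2 in 52X WT and 247.7 and 267.2 in 52X T4A. By this measure it was in place 21 of the table in both 52X WT libraries and in place 22 in both 52X T4A libraries. The ratio of its level to the median level of the other 9 subunit genes was 91.5 and 78.8 in 52X WT and 64.0 and 67.7 in 52X T4A, or 85.2 ± 8.92 (SD, n = 2) and 65.8 ± 2.63 (SD, n = 2). The 2 groups did not overlap in this ratio, and an exact permutation test of 2 against 2 libraries cannot give a two-sided p below 0.333. With exonic length in place of gene span the mean ratio over the 4 libraries was 105.6 instead of 75.5.

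Both 52X T4A libraries had lower normalised POLR2A values than both 52X WT libraries, but the difference did not pass the test. The normalised CPM were 9640 and 8720 in 52X WT and 7492 and 8083 in 52X T4A, with means of 9180 ± 651 (SD, n = 2) and 7788 ± 418 (SD, n = 2). The log2 fold change of 52X T4A over 52X WT was -0.24 with a standard error of 0.25 and a 95% interval from -0.80 to 0.33 (adjusted p = 0.659 by the quasi-likelihood test of edgeR with Benjamini-Hochberg adjustment). Without 52X T4A replicate 1 it was -0.18. The standard error of POLR2A depended on how the spread was estimated. With all 4 libraries it was 0.09 with DESeq2, 0.10 with no filter on low counts and 0.68 with the replicate number as a block. The log2 fold changes in these settings were -0.25, -0.26 and -0.24. With the trend of the counts with GC content taken out, which used the GC content of the endogenous gene and not of the plasmid, the log2 fold change was -0.25 and its adjusted p was 0.00290 in the same edgeR test, the only setting under which POLR2A was called. Fewer transfected cells and less POLR2A RNA per cell cannot be told apart in these bulk libraries. The 2 plasmids also differ in the sequence of the CTD, and whether their reads were counted equally well was not tested.

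The genes whose pattern over the 4 libraries was most like that of POLR2A were found by the root mean square distance of their log2 CPM, each centred on its own mean, among 7436 genes with a symbol and a mean count of at least 1000. The closest were CD276, a cell surface protein of the immunoglobulin superfamily, at a distance of 0.00413, VAC14, a scaffold of the kinase complex that makes a phosphoinositide, at 0.00927, and SEMA4D, a transmembrane semaphorin, at 0.00956. The centred values of POLR2A were 0.19 and 0.05 in 52X WT and -0.17 and -0.06 in 52X T4A, and those of CD276 were 0.19 and 0.04 and then -0.17 and -0.06. With 4 libraries and so many genes, such close patterns are a description only.

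The other 9 subunit genes had levels within a narrow range. By the mean of the 4 libraries, POLR2K stood at 6.39 CPM per kb of span, POLR2L at 6.19, POLR2D at 4.58, POLR2H at 4.14, POLR2B at 3.74, POLR2C at 3.67, POLR2E at 2.86, POLR2I at 2.23 and POLR2G at 2.22. POLR2A, at 280.4, was the only gene whose 4 values lay clear of those of the next gene in the order, and all other neighbours overlapped. The order rested on the choice of length. Divided by exonic length, the levels per kb ran from 33.9 for POLR2B, whose introns make up most of its span, over 28.5 for POLR2L to 2.95 for POLR2I, and 2 of the 10 genes kept their place.

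**Figure D1:**
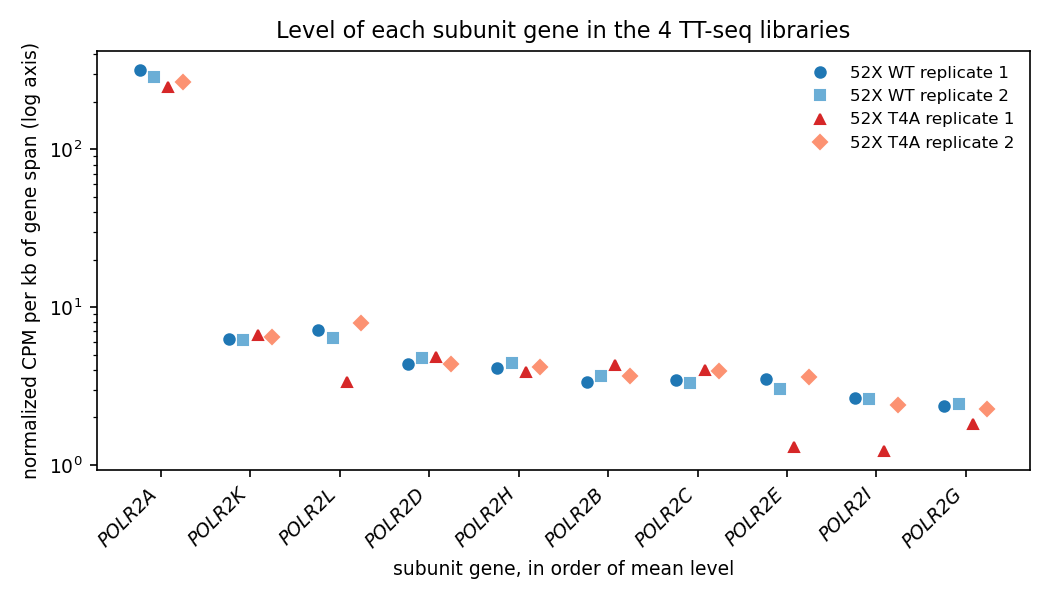
Normalised CPM per kb of gene span, on a log axis, of each of the 10 subunit genes (horizontal axis, in order of mean level) in each of the 4 libraries; each symbol is 1 library. POLR2A lies between 247.7 and 318.7, and all other genes lie between 1.23 and 7.94; the lowest values of POLR2L, POLR2E and POLR2I are those of 52X T4A replicate 1.

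Of the 10 subunit genes, 0 were called at an adjusted p below 0.05 by the quasi-likelihood test of edgeR with Benjamini-Hochberg adjustment, in a comparison that called 1 of all 23321 tested genes, or 0.00429%. At an unadjusted p below 0.05, 1 subunit gene was higher in 52X T4A and 0 were lower, beside 7.45% of all tested genes higher and 8.02% lower. DESeq2 called 0 of the 10 as well, with POLR2A at an adjusted p of 0.0549, and gave no adjusted p for POLR2I. Values of the 52X T4A libraries lay above both 52X WT values for 3 of the 10 genes (POLR2B, POLR2C and POLR2K) and below both for 3 (POLR2A, POLR2G and POLR2I), beside 24.8% and 24.7% of all tested genes. Both counts are near the background. The median log2 fold change was -0.16 over the 10 genes and -0.08 over the 9 genes other than POLR2A, against -0.00076 over all tested genes. The 4 genes whose proteins are shared with RNA polymerases I and III (POLR2E, POLR2H, POLR2K and POLR2L) had a median of -0.17, and the 5 specific to RNA polymerase II (POLR2B, POLR2C, POLR2D, POLR2G and POLR2I) had a median of 0.02. Without 52X T4A replicate 1 both signs turned, to medians of 0.11 and -0.05, and the median over the 9 genes was 0.06. Also without it, 0 of the 10 genes were at an unadjusted p below 0.05.

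POLR2B (ENSG00000047315.17, chr4:56977722-57031158, plus strand) encodes RPB2, which completes the active centre with RPB1. It had 7019 and 8611 counts in 52X WT and 7691 and 6780 counts in 52X T4A. Its normalised CPM were 179.3 and 195.4 in 52X WT and 229.1 and 196.1 in 52X T4A. The second 52X T4A value lay just above the higher 52X WT value, so the groups did not overlap. The log2 fold change of 0.18 (standard error 0.11, 95% interval -0.06 to 0.43) did not pass edgeR's quasi-likelihood test (Benjamini-Hochberg adjusted p = 0.435). Without 52X T4A replicate 1 the estimate was 0.07. The estimates for POLR2A, whose counts also hold reads of the plasmid, and for POLR2B had opposite signs, and neither passed. The signs therefore do not show whether synthesis from the endogenous genes of the active centre differed.

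Among the genes of the assembly platform, POLR2C (ENSG00000102978.13, chr16:57462660-57472009, plus strand) encodes RPB3, which pairs with RPB11 to start assembly. Its normalised CPM were 32.3 and 30.7 in 52X WT and 37.2 and 36.9 in 52X T4A, or 31.5 ± 1.08 and 37.0 ± 0.19 (SD, n = 2 each). The 2 groups were clear of each other and the log2 fold change was 0.23 (standard error 0.10). In the main fit it was the only one of the 10 genes with an unadjusted p below 0.05, by a small margin. It did not pass after adjustment (adjusted p = 0.323, quasi-likelihood test of edgeR with Benjamini-Hochberg adjustment). In the test of DESeq2 the 1 gene below that threshold was POLR2A instead (unadjusted p = 0.00491), and POLR2C was at 0.0909. Without 52X T4A replicate 1 the estimate was 0.24.

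POLR2K (ENSG00000147669.11, chr8:100150623-100154003, plus strand) encodes RPB12, a small zinc-binding subunit. Its normalised CPM were 21.2 and 20.8 in 52X WT and 22.6 and 21.8 in 52X T4A, so that the groups did not overlap, with a log2 fold change of 0.08 ± 0.12 (SE). The interval, from -0.19 to 0.35, holds 0, and without 52X T4A replicate 1 the estimate was 0.06. POLR2L (ENSG00000177700.6, chr11:837356-842529, minus strand) encodes RPB10, the other small zinc-binding subunit of the platform. It had 1442 and 1456 counts in 52X WT and 578 and 1421 counts in 52X T4A. The normalised CPM of POLR2L were 36.8 and 33.0 in 52X WT and 17.2 and 41.1 in 52X T4A, so the 52X T4A replicates held both the lowest and the highest value. Its log2 fold change was -0.26 (standard error 0.32, 95% interval -0.98 to 0.46), and without 52X T4A replicate 1 it was 0.24.

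The ratio of POLR2C over POLR2L within a library showed the same split, but that of POLR2C over POLR2K did not. The log2 ratio of the levels per kb of POLR2C over POLR2L was -1.04 and -0.96 in 52X WT, 0.26 in 52X T4A replicate 1 and -1.01 in 52X T4A replicate 2. That of POLR2C over POLR2K was -0.86 and -0.91 in 52X WT and -0.75 and -0.71 in 52X T4A. The first ratio set 1 library apart from the other 3, whereas in the second both 52X T4A libraries lay above both 52X WT libraries. For the values of single genes, 24.8% of all tested genes had both 52X T4A libraries above both 52X WT libraries. No such share is given for ratios.

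The stalk is made of RPB4 and RPB7. POLR2D (ENSG00000144231.11, chr2:127843553-127858155, minus strand) encodes RPB4, and its normalised CPM were 63.8 and 69.2 in 52X WT and 70.6 and 63.8 in 52X T4A. The groups overlapped and the log2 fold change was 0.02 (95% interval -0.21 to 0.24), the estimate nearest to 0 among the 10 genes. POLR2G (ENSG00000168002.12, chr11:62761565-62766710, plus strand) encodes RPB7, which contacts the emerging RNA. It had 477 and 550 counts in 52X WT and 315 and 400 counts in 52X T4A, and its normalised CPM were 12.2 and 12.5 and then 9.38 and 11.6. Both 52X T4A values of POLR2G lay below both 52X WT values, but the log2 fold change of -0.24 had a standard error of 0.16 and did not pass (Benjamini-Hochberg adjusted p = 0.499, edgeR's quasi-likelihood test). Without 52X T4A replicate 1 the estimate for POLR2G was -0.09 and without 52X T4A replicate 2 it was -0.41, while that for POLR2D was -0.05 and 0.07. The log2 ratio of POLR2D over POLR2G per kb was 0.88 and 0.97 in 52X WT and 1.41 and 0.96 in 52X T4A, and only 52X T4A replicate 1 lay outside the range of the other 3 libraries by more than their own spread.

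In the jaw region, POLR2E (ENSG00000099817.12, chr19:1086574-1095380, minus strand) encodes RPB5, which is shared by all 3 polymerases and touches downstream DNA. It had 1201 and 1181 counts in 52X WT and 381 and 1103 counts in 52X T4A. The normalised CPM were 30.7 and 26.8 in 52X WT and 11.4 and 31.9 in 52X T4A, so 52X T4A replicate 2 was the highest and replicate 1 the lowest of the 4. The log2 fold change was -0.41 with a standard error of 0.37 and an interval from -1.26 to 0.44. Leaving out 52X T4A replicate 1 turned its sign, to 0.16. Leaving out 52X T4A replicate 2 instead gave -1.35 (adjusted p = 4.2e-14, quasi-likelihood test of edgeR with Benjamini-Hochberg adjustment), a fit in which the lone 52X T4A library is assumed to vary like the 52X WT pair.

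POLR2I (ENSG00000105258.9, chr19:36113709-36115213, minus strand) encodes RPB9, which takes part in transcript cleavage and in the fidelity of transcription. It was the least counted of the 10 genes, with 156 and 174 counts in 52X WT and 62 and 125 counts in 52X T4A. The normalised CPM were 3.99 and 3.95 in 52X WT and 1.85 and 3.62 in 52X T4A. The 2 52X WT values were nearly equal, 52X T4A replicate 2 lay slightly below them, and replicate 1 lay well below. The log2 fold change of -0.54 (standard error 0.31, 95% interval -1.26 to 0.18) was the lowest of the 10 and did not pass (adjusted p = 0.435 by the quasi-likelihood test of edgeR with Benjamini-Hochberg adjustment), and without 52X T4A replicate 1 it was -0.13. POLR2H (ENSG00000163882.9, chr3:184361718-184368596, plus strand) encodes RPB8, another subunit shared by the 3 polymerases. Its normalised CPM were 28.3 and 30.3 in 52X WT and 26.6 and 28.8 in 52X T4A, which overlap, and its log2 fold change was -0.08 (95% interval -0.34 to 0.18), or -0.02 without 52X T4A replicate 1.

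**Figure D2:**
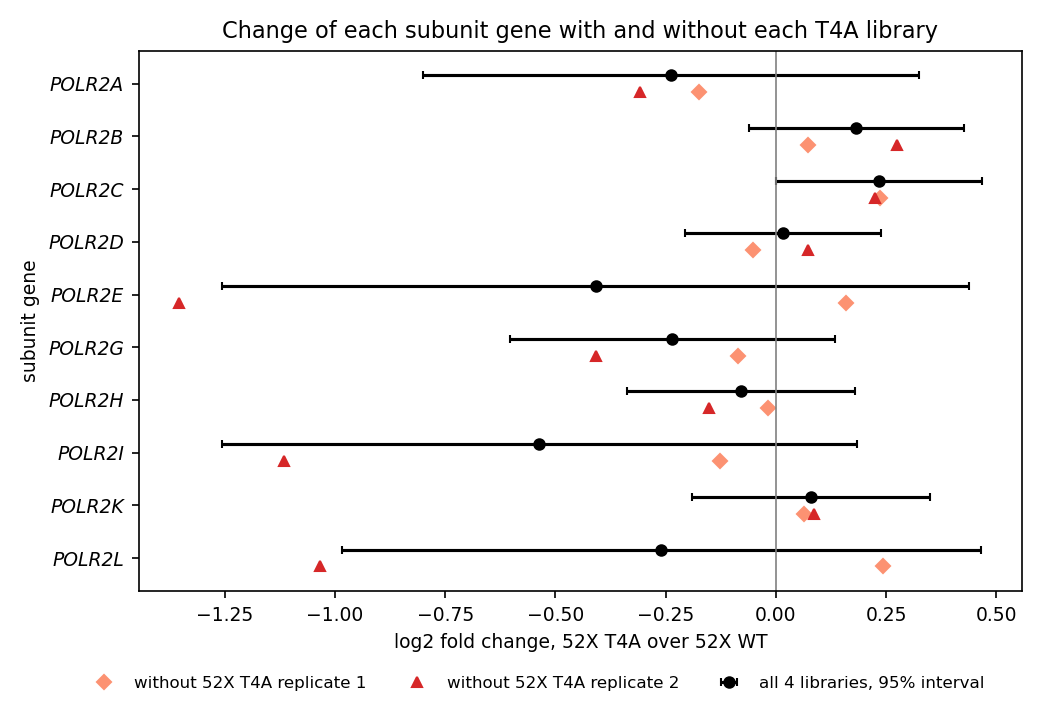
Log2 fold change of 52X T4A over 52X WT for each subunit gene from edgeR, with all 4 libraries (black, bars give the 95% interval) and without either 52X T4A library. The interval of POLR2C is the only one that lies above 0, starting at 0.0005; POLR2E, POLR2I and POLR2L range from -1.35, -1.12 and -1.04 without 52X T4A replicate 2 to 0.16, -0.13 and 0.24 without replicate 1.

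The same 3 genes were thus low in the same library. Against the mean of the other 3 libraries, 52X T4A replicate 1 was 2.62-fold lower for POLR2E, 2.15-fold lower for POLR2L and 2.08-fold lower for POLR2I. POLR2E was the only one of the 10 that was at least 2-fold below each of the other 3 libraries. POLR2G was 1.29-fold, POLR2A 1.18-fold and POLR2H 1.09-fold lower in that library, and for POLR2K, POLR2D, POLR2C and POLR2B the log2 difference was 0.08, 0.11, 0.16 and 0.27. Between the 52X T4A replicates the log2 difference was -1.49 for POLR2E, -1.26 for POLR2L and -0.97 for POLR2I, and between the 52X WT replicates no subunit gene differed by more than 0.20.

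The low values of 52X T4A replicate 1 went along with the base composition of the genes. POLR2E, POLR2L and POLR2I have a GC content of 61.5%, 61.0% and 60.7% over their spans, and they are the only 3 of the 10 genes in the top GC decile of all tested genes, from 56.7% to 83.9%. The median log2 difference of 52X T4A replicate 1 from the other 3 libraries was -0.76 in that decile, and 27.3% of its genes were at least 2-fold below each of the other 3, against 0.129% in the bottom GC decile. POLR2K, at 37.2%, lies in that bottom decile, and POLR2B is at 40.2%. Across the 9 genes other than POLR2A the log2 difference of 52X T4A replicate 1 from the other libraries correlated with GC content at Pearson's r = -0.91 and Spearman's rho = -0.87, as a description of genes measured in the same libraries, which are not independent replicates. Over 23162 tested genes with a GC value the same correlations were -0.48 and -0.39. The corresponding Pearson correlation for 52X T4A replicate 2 was 0.77 over the 9 genes and 0.29 over all, but its other 3 libraries include 52X T4A replicate 1. Set against the mean of the 52X WT libraries alone, 52X T4A replicate 1 correlated with GC content at r = -0.91 over the 9 genes and -0.44 over all, and 52X T4A replicate 2 at 0.09 and 0.06. In the top GC decile the medians against 52X WT alone were -0.73 and 0.09 (log2). With the trend of counts with GC content taken out of each library, the log2 fold changes of 52X T4A over 52X WT were -0.15 for POLR2E, 0.00 for POLR2L and -0.26 for POLR2I, against -0.41, -0.26 and -0.54 without this step.

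**Figure D3:**
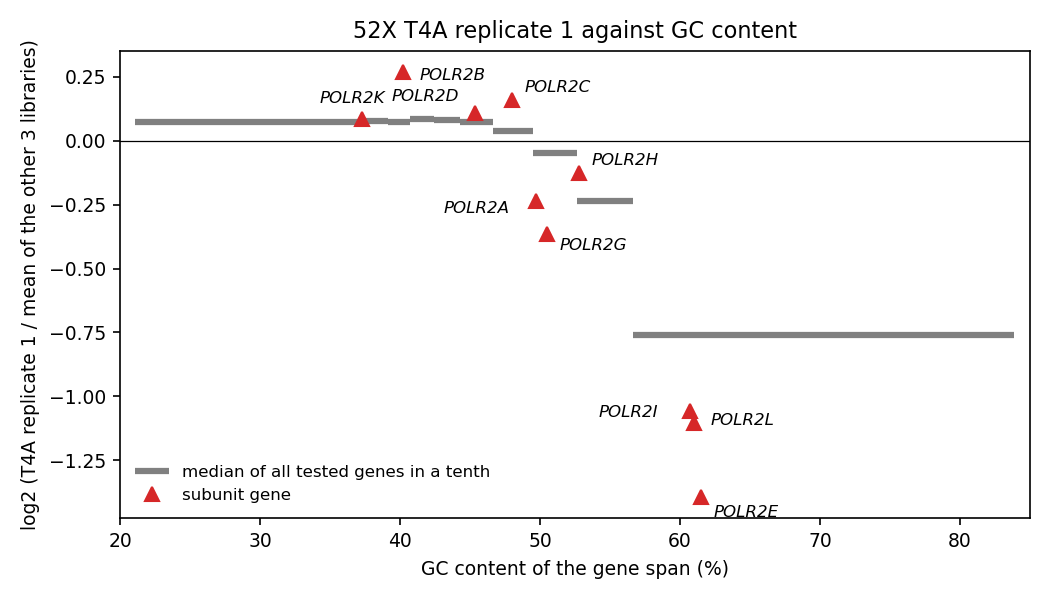
Log2 difference of 52X T4A replicate 1 from the mean of the other 3 libraries (vertical axis) against the GC content of the gene span in percent (horizontal axis). Triangles are the 10 subunit genes and grey bars give the median of all tested genes in each decile of GC content; POLR2E, POLR2I and POLR2L lie at 60.7% to 61.5% GC and at or below -1.06, and the bar over the top decile lies at -0.76.

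The bases just before the start of 5 of the genes are shown because the subunit genes differ in the GC content of their promoters as well as of their spans. They are 100 bases upstream of the RefSeq transcription start on GRCh38.p14, written in the direction of transcription, and capitals mark the GC box GGGCGG on either strand, a sequence that Sp1-family factors can bind. POLR2E (chr19:1095376-1095475, minus strand) and POLR2L (chr11:842530-842629, minus strand) were low in 52X T4A replicate 1, whereas POLR2D (chr2:127858156-127858255, minus strand) and POLR2H (chr3:184361610-184361709, plus strand) were at log2 differences of 0.11 and -0.13. The endogenous POLR2A promoter (chr17:7484266-7484365, plus strand) is given beside them.
POLR2E: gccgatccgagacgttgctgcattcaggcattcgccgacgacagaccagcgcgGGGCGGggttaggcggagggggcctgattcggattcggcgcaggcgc
POLR2L: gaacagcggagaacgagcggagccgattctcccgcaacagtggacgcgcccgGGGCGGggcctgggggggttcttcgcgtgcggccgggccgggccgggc
POLR2D: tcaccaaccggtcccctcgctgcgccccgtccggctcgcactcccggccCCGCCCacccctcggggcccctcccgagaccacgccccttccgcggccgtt
POLR2H: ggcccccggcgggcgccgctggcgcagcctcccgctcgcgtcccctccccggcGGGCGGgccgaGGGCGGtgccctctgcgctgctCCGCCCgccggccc
POLR2A: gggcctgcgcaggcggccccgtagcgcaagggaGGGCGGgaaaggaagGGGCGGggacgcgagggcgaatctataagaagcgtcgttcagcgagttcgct
The windows of 250 bases upstream of the start were 72.0% GC for POLR2D, 82.0% for POLR2H and 79.2% for POLR2L, 62.8% for POLR2E, 59.6% for POLR2A, 54.0% for POLR2B and 53.6% for POLR2C. The median of 27305 RefSeq promoters was 58.0%. The 7 genes include POLR2A, whose counts also hold reads of the plasmid. Over these 7 genes, as a description, the GC content of the promoter and that of the span correlated at Pearson's r = 0.49. The log2 difference of 52X T4A replicate 1 from the other libraries correlated at r = -0.32 with promoter GC content and at r = -0.94 with span GC content over the same 7 genes. POLR2B and POLR2C, with the lowest promoter GC content, had the highest log2 differences, 0.27 and 0.16, and POLR2D and POLR2H, with promoters of 72.0% and 82.0%, were at 0.11 and -0.13. In the RefSeq promoter windows, 7 of the 10 genes had an entry, and GGGCGG was found on either strand in 6 of the 7, against 42.3% of all promoters. The letters CCAAT and TATAAA were found in 0 of the 7, against 33.0% and 11.1% of all promoters, and CCGGAAG, the core bound by many ETS factors, in 1 of the 7, against 8.82%.

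Other genes share bases with 2 of the low genes. Genes on the opposite strand cover 61.7% of the span of POLR2I, and CD151 covers 47.9% of that of POLR2L. The library protocol keeps strand, but the strand setting of the counting is not given in the sources used here, so reads from the opposite strand cannot be told apart for these genes. For the other 8 genes, overlaps on the opposite strand covered at most 2.49% of the span, and on the same strand no gene of the 10 had more than 2.39% of its span covered.

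The genes that surround RNA polymerase II in function were compared by lists, each described by its counts and its median beside those over all tested genes. In the 8 lists, 0 genes passed at an adjusted p below 0.05 by the quasi-likelihood test of edgeR with Benjamini-Hochberg adjustment. Of the 5 other subunit genes of RNA polymerase II listed, 4 were tested and POLR2J2 had 0 counts in all 4 libraries. The median log2 fold change of the 4 was 0.01, and 0 passed at an unadjusted p below 0.05. POLR2F, which encodes RPB6, the last of the subunits shared by the 3 polymerases, had a log2 fold change of 0.00 with a standard error of 0.09. POLR2J, which encodes RPB11, the partner of RPB3, was the lowest at -0.19 ± 0.14 (SE), and POLR2J3, one of its near-identical copies, was the highest at 0.50 ± 0.36 (SE). Reads of such copies may be split or dropped by the counting, so the values of POLR2J and POLR2J3 are uncertain.

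Among the 6 genes specific to RNA polymerase I, 1 was higher in 52X T4A at an unadjusted p below 0.05, and the median was 0.04. That gene was POLR1E, at 0.25 ± 0.11 (SE), and the lowest was POLR1G at -0.13 ± 0.15 (SE). Both genes shared by RNA polymerases I and III only had positive estimates, of 0.30 ± 0.11 for POLR1C, which had an unadjusted p below 0.05, and 0.08 ± 0.09 for POLR1D (SE). POLR1C is the counterpart of RPB3 in those polymerases. The 11 genes specific to RNA polymerase III had a median of -0.09, with 1 lower at an unadjusted p below 0.05. It was POLR3E at -0.36 ± 0.11 (SE), and the highest was POLR3GL at 0.44 ± 0.50 (SE). Neither polymerase had a gene past the adjusted threshold.

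RNA polymerase II is built with help from the R2TP and prefoldin-like chaperones and GPN-loop GTPases. Of the 16 assembly and import genes, 2 were lower in 52X T4A at an unadjusted p below 0.05 and 0 were higher, with a median of -0.02. RUVBL1, an ATPase of the R2TP complex, had normalised CPM of 126.5 and 115.0 in 52X WT and 79.5 and 85.9 in 52X T4A. The groups did not overlap and the log2 fold change was -0.55 with a standard error of 0.09, but its adjusted p was 0.150 (quasi-likelihood test of edgeR with Benjamini-Hochberg adjustment). It had the lowest p of all genes in the 8 lists. The highest in this list was GPN3, a GTPase needed for nuclear entry of the polymerase, at 0.17 ± 0.12 (SE).

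Among the general transcription factor genes, 15 of the 16 listed were tested and GTF2H4 had 0 counts. Their median was -0.07, and 1 was lower at an unadjusted p below 0.05. The lowest was GTF2A2, the small subunit of TFIIA, at -0.56 ± 0.21 (SE), and the highest was GTF2B, which encodes TFIIB, at 0.33 ± 0.15 (SE). Of the 13 genes of TFIID-associated factors, 12 were tested and TAF9 had 0 counts. Whether GTF2H4 and TAF9 were silent or their reads were dropped by the counting was not tested. Their median was -0.08, with 1 higher and 2 lower at an unadjusted p below 0.05. They ran from TAF10 at -0.50 ± 0.21 (SE) to TAF13 at 0.22 ± 0.08 (SE). The 10 genes of ubiquitin ligases and other proteins that act in RPB1 turnover had a median of -0.03 and ran from UVSSA, which acts in transcription-coupled repair, at -0.25 ± 0.23 (SE) to ELOA, a subunit of elongin, at 0.24 ± 0.09 (SE), with 1 higher at an unadjusted p below 0.05. The share of genes past the unadjusted threshold in these lists can be set against 7.45% higher and 8.02% lower over all tested genes. Without 52X T4A replicate 1 the medians were -0.01 for the other RNA polymerase II subunit genes, 0.02 for RNA polymerase I, 0.14 for the genes shared by I and III and -0.10 for RNA polymerase III. They were -0.01 for the assembly and import genes, -0.12 for the general transcription factors, -0.12 for the TFIID-associated factors and -0.04 for the RPB1 turnover genes.

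**Figure D4:**
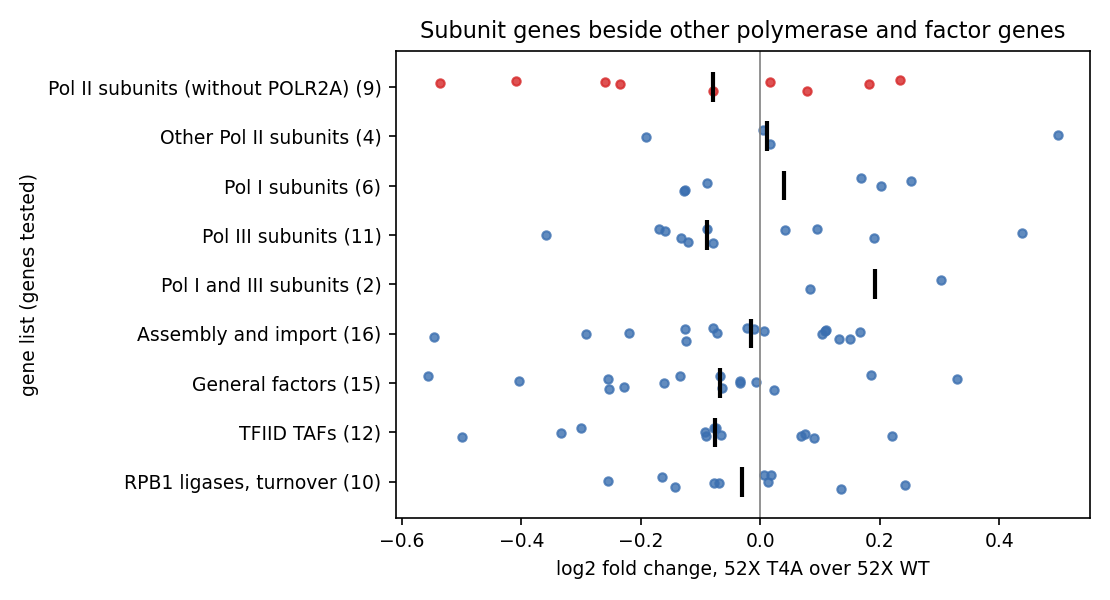
Log2 fold change of 52X T4A over 52X WT (horizontal axis) of each tested gene, by gene list (vertical axis, number of tested genes in brackets). Points are genes, black bars are list medians and red points are the 9 subunit genes other than POLR2A; the medians of the lists lie between -0.09 and 0.19, and that of the 9 subunit genes is -0.08.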

How the data were processed

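TT-seq was measured in 4 libraries, 2 of 52X WT and 2 of 52X T4A. The authors deposited 1 table of raw counts per gene in the format of featureCounts, not normalised. According to the submitters' processing notes, FastQC, cutadapt 4.6, STAR 2.7.11b, Picard and deepTools 3.5.6 were used with GRCh38. The settings of the counting are not given in the sources used here. In the table the listed length of every gene equals its span, so introns were counted. GRCh37 with GENCODE v44lift37 was at hand and was used only for symbols, exonic lengths and GC content by stable identifier, which matched 58742 of 60708 genes, whereas coordinates are those of the table. The labels put every library in its group.

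Genes were tested with edgeR 4.0.16 in R 4.3.3 (TMM, filterByExpr, quasi-likelihood test, Benjamini-Hochberg adjustment over all 23321 tested genes, threshold 0.05), and standard errors and 95% intervals were derived from the F statistic. TMM factors ran from 0.967 to 1.04. Levels are TMM-normalised CPM per kb of span. The edgeR fit was tested on simulated data before use. Alternatives were DESeq2 1.42.0, other normalisations and filters, protein-coding genes alone, the replicate number as a block, leaving out each library, exonic length and, chosen after seeing the data, removal of the trend with GC content (lowess, span 0.3). Named genes are all 10 subunit genes, the highest and lowest tested member of each comparison list with any past the adjusted threshold, and the 3 genes most like POLR2A in their pattern. POLR2F was named besides, after its values were seen. Members, lists and tests were chosen with earlier results of these data known.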

Additional observations from a re-analysis of the deposited data

How the results depend on the processing

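Over the settings that kept all 4 libraries, the log2 fold changes of POLR2A, POLR2B, POLR2C, POLR2E, POLR2G, POLR2H, POLR2I and POLR2K kept their sign. That of POLR2D was -0.00904 with no filter on low counts and -0.0211 with the GC trend removed, and that of POLR2L was 0.00186 with the GC trend removed. The number of genes called, 1 in the main analysis, was 867 with DESeq2, 150 with no filter and 2402 with the GC trend removed; in the last, 1 subunit gene was called, POLR2A, at -0.253. With exonic length the ratio of POLR2A to the other 9 genes was 105.6. The cause of these changes was not tested. Leaving out 1 library at a time, the number of genes called ran from 0 to 3466, that of subunit genes called from 0 to 3 and the median of the 9 genes from -0.152 to 0.0627. With 1 library left out, POLR2A ran from -0.33 to -0.17, POLR2B from 0.07 to 0.28, POLR2D from -0.0533 to 0.0716, POLR2E from -1.35 to 0.16, POLR2G from -0.41 to -0.09, POLR2I from -1.12 to -0.13, POLR2L from -1.04 to 0.24 and the ratio from 70.2 to 79.3. The low ends of POLR2E, POLR2I and POLR2L were those without 52X T4A replicate 2, and their high ends were those without 52X T4A replicate 1.

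The replicate numbers did not pair the libraries, as deviations of same-numbered libraries correlated at -0.0691 over 23321 genes. With the replicate block, 533 of the 23321 tested genes and 0 subunit genes were called, and POLR2E was at -0.58 (adjusted p = 0.0514, edgeR's quasi-likelihood test).

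With 2 libraries per group, of which 1 stands apart, an absent call says little. The interval of POLR2E spans from -1.26 to 0.44.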

Other observations

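Genes next to the subunit genes were looked at after the values of the subunit genes were seen. CD151, which overlaps POLR2L on the other strand, had a GC content of 63.3% and was at a log2 difference of -1.64 in 52X T4A replicate 1 from the mean of the other 3 libraries. TSPAN4, also close to POLR2L, had a GC content of 65.0% and was at -1.82. ARHGAP45, which overlaps POLR2E by 55 bases on the other strand and has a GC content of 61.6%, was at 0.10, with normalised CPM of 1.89 and 1.18 in 52X WT and 1.61 and 1.45 in 52X T4A. CLCN2, next to POLR2H and at 55.5% GC, was at -0.54, and TBCB, which overlaps POLR2I, was at -0.32, at a GC content of 55.3%.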
